A study of Rattus norvegicus with 12 samples.

Results

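The enzymes of glycolysis and of the citric acid cycle were examined in cultures of mixed glia from neonatal rat brain that had been given mixtures of cytokines. The genes were chosen by name, as 38 enzymes that lead from glucose to lactate or through pyruvate into the cycle, and a gene was counted as measured if a probe set of the array was annotated to it alone. Of the 38 genes, 28 had such a probe set among those tested, with 46 probe sets in all. The whole table had 8740 probe sets tested, of which 7006 were annotated to a single gene and covered 4736 genes. Gapdh had only control probe sets. Ldha and Tpi1 were only on probe sets that were annotated to several genes. Gpi, Hk3, Eno2, Idh3a, Idh3b, Fh and Sdhb had no probe set annotated to them.

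The cultures were prepared by a shake-off method and hold oligodendrocytes, astrocytes, microglia and their precursors, so that each array measured RNA of all of these cells together. In such RNA, fewer cells of a type and less RNA per cell cannot be told apart. There were 3 experiments, each with 4 cultures and 1 array for each. Treated cultures received cytokines at 10 ng/ml for 6 hours in a defined medium that held fetal bovine serum at 2%, and controls were kept in the same medium. Th1 cytokines were rat IL-2, interferon-γ, TNF-α and G-CSF. Monocyte/macrophage (M/M) cytokines were rat IL-1α, IL-1β, IL-12p40 and TNF-α, to which the methods add IL-6. Th2 cytokines were rat IL-5, IL-10 and G-CSF with porcine TGF-β1, to which the methods add IL-4. The strain, sex and pooling of the animals are not given in the sources used here.

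In glycolysis, hexokinases trap glucose inside the cell as glucose 6-phosphate, phosphofructokinases commit the sugar to breakdown, and aldolases split it. The lower enzymes then yield pyruvate, which lactate dehydrogenases turn into lactate. Alternatively, the pyruvate dehydrogenase complex passes the carbon to the citric acid cycle in mitochondria, and the pyruvate dehydrogenase kinases switch that complex off. Astrocytes are known for brisk glycolysis and for the release of lactate, aldolase C (Aldoc) is a common marker of astrocytes in the brain, and activated microglia and macrophages are known to raise glycolysis.

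The arrays of experiment 3 went against their labels. Cd74, the invariant chain of MHC class II and a gene induced by interferon-γ, had a signal of 989 and 344 on the Th1 arrays of experiments 1 and 2 and of no more than 49 on the other arrays of those experiments. In experiment 3 its signal was 3.7 on the array labelled Th1 and 1380 on the array labelled M/M. Il1b, which encodes IL-1β, had 2105 and 1075 on the M/M arrays and 60.8 and 38.2 on the Th2 arrays of experiments 1 and 2, but 479 on the array labelled M/M and 1649 on that labelled Th2 in experiment 3. No array was moved to another group. Results are given by the labels, and the log2 differences without experiment 3 follow those with all arrays. Where 3 differences from control stand together, they are in the order Th1, M/M and Th2.

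The arrays were not rescaled. Their median signals were from 57 to 60.9 in experiment 1. In experiment 2 the control array had a median of 38.4 and the treated arrays from 56 to 61. In experiment 3 the array labelled M/M had 42.2 and the others from 24.5 to 29. The median log2 difference from control over all 8740 probe sets was therefore 0.14, 0.33 and 0.19 for the Th1, M/M and Th2 mixtures, and values centred on the median of each array are given where they differ. The ratio of the 3′ to the 5′ control probe set of Gapdh, a sign of RNA integrity, was from 1.19 to 1.58, with the values of experiment 3 between 1.38 and 1.58. The same ratio for the control probe sets of hexokinase was higher, from 3.08 to 5.91. Mbp, Glul and C1qb, which mark oligodendrocytes, astrocytes and microglia, were each measured by a probe set at or above the 97.8th percentile of signal. All 6 neuronal markers were dimmer than the middle probe set. Csf1r and Itgam of microglia were also below the middle, as was 1 of the 7 measured astrocyte markers. Of 5 fibroblast markers, all measured, only 1 was below the middle, and their summed signal was from 714 to 4350 in controls. RNA of fibroblasts in the cultures is thus not excluded. Gfap had no probe set of its own.

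No enzyme passed the test in any comparison with all arrays. With limma, experiment as a block and p-values adjusted over all probe sets, 0 of 46 member probe sets passed an adjusted p of 0.05 for any mixture. Of all probe sets, 0.263 percent passed upward in the M/M group, 0.0114 percent in the Th2 group and 0 percent in the Th1 group, and none passed downward. At an unadjusted p of 0.05, 3 member probe sets (6.52%) were higher with Th1 cytokines, against 4.75 percent of all probe sets. With M/M cytokines 12 (26.1%) were higher, against 15.4 percent of all, and with Th2 cytokines 0, against 6.06 percent. None was lower at that p, where all probe sets gave 0.812, 0.584 and 0.686 percent. The 3 comparisons share the same control arrays. By the screening criteria of the methods, which are a difference of more than 2-fold and an unadjusted analysis of variance p under 0.2, 2 member probe sets were called upward in the M/M group and 0 in the Th1 and Th2 groups. Upward these criteria called 1.99, 6.35 and 2.87 percent of all probe sets for the Th1, M/M and Th2 mixtures, and downward 0.778, 0.469 and 0.549 percent. Without experiment 3, 0 member probe sets passed an adjusted p of 0.05, where 0.641 percent of all probe sets passed upward and 0.0229 percent downward for Th1, 0.389 and 0 percent for M/M, and 0 percent in either direction for Th2. At an unadjusted p of 0.05 without that experiment, 9 member probe sets (19.6%) were higher and 0 lower with Th1 cytokines, against 7.43 and 1.48 percent of all. With M/M cytokines 1 was then higher and 2 lower, against 8.57 and 2.77 percent, and in the Th2 group 1 was higher and 0 lower, against 4.73 and 1.59 percent.

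With 1 probe set per gene, the brightest, the median log2 difference over the 28 genes was 0.07, 0.21 and 0.17 for the Th1, M/M and Th2 mixtures. Each was below the median of all probe sets given above. After centring the medians were -0.09, -0.22 and -0.04, so that their sign depends on how the arrays are scaled. Without experiment 3 and without centring they were 0.08, 0.08 and 0.13, and with centring as well all 3 were negative. Without centring, the number of genes above control also differed between experiments. With M/M cytokines, 8 of the 28 genes were above control in experiment 1, 21 in experiment 2 and 24 in experiment 3. The same counts were not made over all probe sets. The median signals of the M/M and control arrays were 60.9 and 59.1, 57.9 and 38.4, and 42.2 and 26.9 in these experiments. No direction of the enzymes themselves can thus be read from the counts. Above control in all 3 experiments were 14 member probe sets (30.4%), against 32 percent of all.

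**Figure D1:**
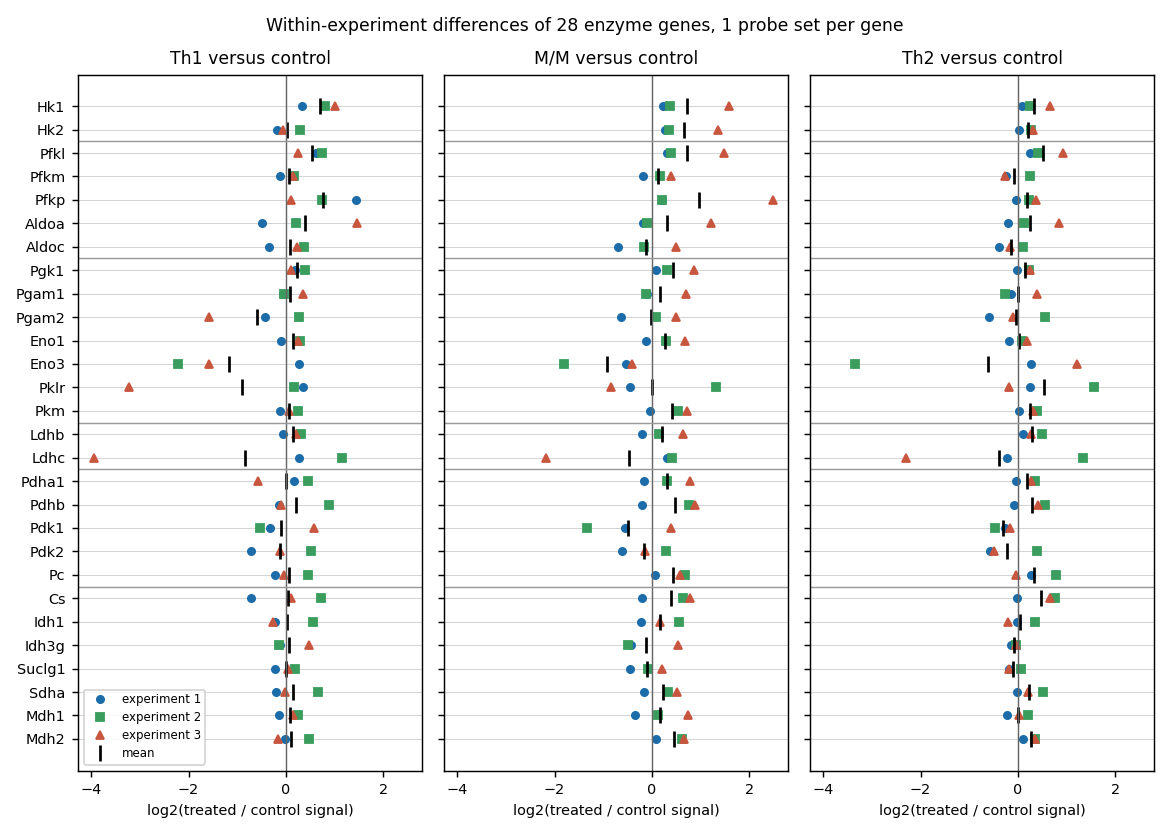
Log2 ratio of the treated to the control signal (x axis) for 28 enzyme genes (y axis, grouped by role from hexokinases at the top to the citric acid cycle at the bottom), with a symbol for each experiment and a black bar for the mean of 3. The symbols of most genes lie on both sides of 0, the triangles of experiment 3 are farthest right for most genes in the M/M panel, and the widest spreads belong to the dim probe sets of Eno3, Pklr and Ldhc.

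With M/M cytokines and all arrays, the brightest probe sets farthest above control were those of Pfkp, Pfkl, Hk1 and Hk2, enzymes at the entry of glycolysis. Without experiment 3 this order did not hold, and Pklr (0.44), Pc (0.37), Ldhc (0.36) and Mdh2 (0.35) came first, with dim probe sets for Pklr and Ldhc. Over all probe sets a dim one of Idh1 was highest, with 1.81 and 1.67 without experiment 3. Its M/M signals were 12.47, 26.45 and 9.4, against 19.67, 1.66 and 2.2 in the controls. It was thus below control in experiment 1, and the value without experiment 3 rested on experiment 2. Pfkp, the platelet-type phosphofructokinase, was measured by 2 probe sets, L25387_g_at and L25387_at. The first, the brighter, had a signal of 291, 178 and 199 in the controls of experiments 1, 2 and 3. It had 786, 300.2 and 216 on the arrays labelled Th1, 335, 207 and 1114 on those labelled M/M, and 282, 208 and 258 on those labelled Th2. Pfkp was thus highest on the Th1 array in experiments 1 and 2 and on the array labelled M/M in experiment 3. These are the 3 arrays on which Cd74 was high.

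The other probe set of Pfkp had 129, 80.4 and 55.9 in the controls, 314, 139 and 44.7 with Th1, 165, 107 and 358 with M/M, and 143, 116 and 40.1 with Th2 cytokines, with its highest value on the same 3 arrays. Over all experiments the log2 difference of the brighter probe set from control was 0.77 (SE 0.49, n = 3, limma adjusted p = 0.857) with Th1 and 0.97 (SE 0.49, n = 3, limma adjusted p = 0.343) with M/M cytokines. Without experiment 3 the value was 1.09 (SE 0.25, n = 2, limma adjusted p = 0.211) with Th1 and 0.21 (SE 0.25) with M/M cytokines. The dimmer probe set gave 1.15 with M/M cytokines and 0.38 without experiment 3. With Th2 cytokines the brighter probe set gave 0.18, and 0.09 without experiment 3, and the dimmer gave 0.07 with all arrays. In experiments 1 and 2 the Th1 signal of the brighter probe set was 2.7 and 1.68 times that of the control. Of the 28 genes, 5 were highest on these same 3 arrays, namely Hk1, Pdha1, Pfkl, Pfkp and Pgk1. The share of all probe sets with this pattern was not counted, so the count is no result about the enzymes. The Th1 array was the highest for 6 of the 28 genes in experiment 1 and for 14 in experiment 2. In experiment 1 its lead over the next array was 1.07-fold for Hk1 and for Pgk1, against 2.35-fold for Pfkp. In experiment 3 the array labelled M/M was the highest for 22 of the 28 genes, so that a high value there is common to most of them. That array also had the highest median signal of its experiment, 42.2.

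**Figure D2:**
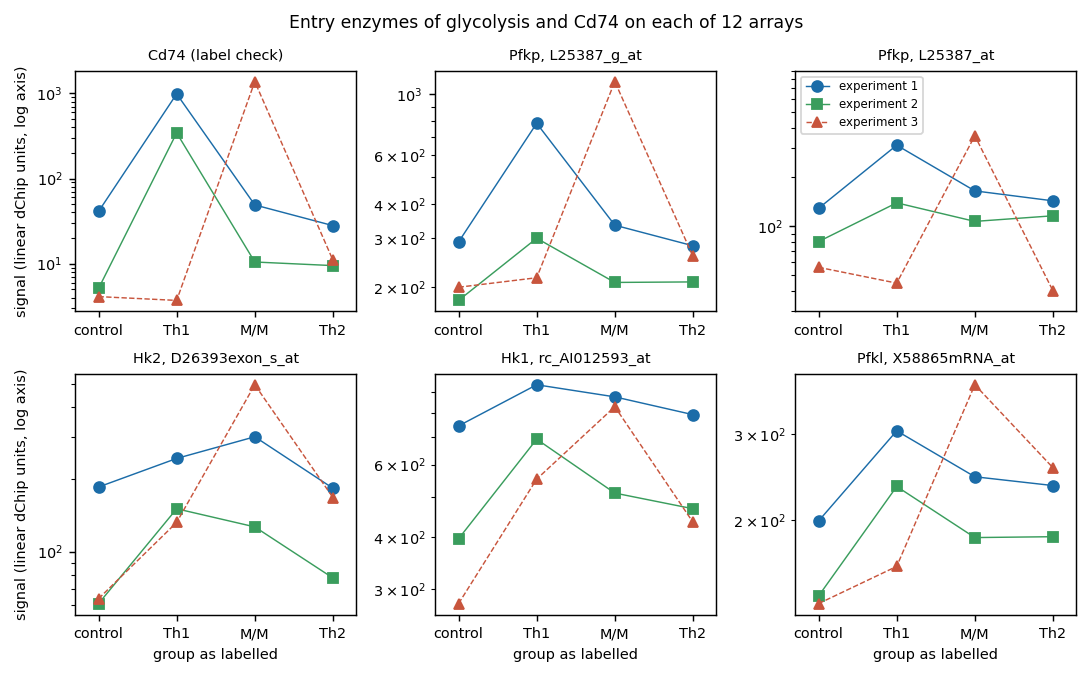
Signal on each of 12 arrays (y axis, linear dChip units on a log axis) for Cd74 and for probe sets of Pfkp, Hk2, Hk1 and Pfkl by the labelled group (x axis), with lines that join the arrays of 1 experiment. Both Pfkp probe sets peak on the array on which Cd74 peaks in each experiment, Th1 in experiments 1 and 2 and the array labelled M/M in experiment 3.

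Hk2, the inducible hexokinase, had 2 probe sets that differed in size. That of an exon, D26393exon_s_at, had a signal of 186, 60.8 and 63.7 in the controls, 244, 151 and 132 with Th1, 300.4, 127 and 494 with M/M, and 183, 77.7 and 168 with Th2 cytokines. It was above its control on each Th1 and M/M array and on the Th2 arrays of experiments 2 and 3. Its log2 difference with M/M cytokines was 1.57 (SE 0.39, n = 3, limma adjusted p = 0.114), the lowest adjusted p of any member probe set with all arrays. When the array labelled Th1 of experiment 3 was left out, which is in neither group but enters the shared spread, the same difference had an SE of 0.36 and an adjusted p of 0.0468. In that fit 2.06 percent of all probe sets passed upward and 0.0343 percent downward. The difference was 0.88 without experiment 3 and 0.56 with centring besides, with adjusted p-values of 0.336 and 0.17. With Th1 cytokines it was 0.92 (SE 0.39) and with Th2 cytokines 0.58 (SE 0.39), and without experiment 3 these were 0.85 and 0.17. The other probe set of Hk2, M68971_at, gave 0.66 (SE 0.27) with M/M and 0.02 (SE 0.27) with Th1 cytokines, and 0.31 and 0.06 without experiment 3. The screening criteria called D26393exon_s_at and the dimmer probe set of Pfkp with M/M cytokines. The log2 difference of D26393exon_s_at between M/M and Th2 cytokines was 0.99 (SE 0.39, adjusted p = 0.998), and 0.71 without experiment 3.

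Hk1, the hexokinase of most brain cells, had a signal of 745, 397 and 276 in the controls, 937, 692 and 554 with Th1, 876, 512 and 829 with M/M, and 793, 469 and 435 with Th2 cytokines. All 9 treated arrays were above the control of their experiment, although the ranges of the groups overlapped because the experiments differed in level. The log2 difference was 0.71 (SE 0.24, n = 3, limma adjusted p = 0.857) with Th1 and 0.73 (SE 0.24, n = 3, limma adjusted p = 0.208) with M/M cytokines. Centring brought these to 0.55 and 0.30, and without experiment 3 they were 0.57 and 0.30. With both changes the M/M value was -0.02. A second probe set of Hk1, U27319exon_at, gave 0.11 and 0.48, and -0.03 and 0.08 without experiment 3. Control probe sets of Hk1, which were outside the main test, were dimmer than the brightest one. AFFX_Rat_Hexokinase_3_at, 5_at and M_at had M/M values of 0.79, 0.96 and 1.35 in the fit that added control probe sets, where none passed. Over experiments 1 and 2 their means stayed above 0, at 0.54, 0.73 and 0.52. For the Th1 mixture such means were 0.61, 0.6 and 0.39, although 3_at and 5_at lay below control in experiment 1. Pfkl, the liver-type phosphofructokinase, had 199, 140 and 135 in the controls, 305, 235 and 161 with Th1, 246, 184 and 379 with M/M, and 236, 185 and 256 with Th2 cytokines, so that it too was above control on all 9 treated arrays. Its log2 differences were 0.54, 0.73 and 0.52 (SE 0.29 each), with 0.68, 0.35 and 0.32 without experiment 3 and 0.38, 0.30 and 0.31 after centring. The muscle type, Pfkm, gave 0.06, 0.13 and -0.08 (SE 0.20 each) on its brighter probe set, and none exceeded 0.02 in size without experiment 3. A dimmer probe set of Pfkm, D21869_s_at, gave -0.21, -0.87 and -0.27. Its M/M signals were 57, 10.5 and 47, against 57, 81.9 and 37 in the controls, so that its M/M value rested on experiment 2.

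The stretches before the starts of Pfkp and Aldoc are shown because Pfkp was highest where Cd74 was and Aldoc held the lowest adjusted p of a member in any setting. They are the 250 bases that precede the start in RefSeq (GRCr8), at chr17:68639563-68639812 on the + strand and at chr10:63715294-63715543 on the + strand. Capitals mark ACGTG, a form of the core of the site bound by HIF-1, and CCGCCC, the GC box, on either strand. The other form of that core, GCGTG, was not searched for. It occurs unmarked in both stretches, so the counts of ACGTG below are not counts of all such cores.
Pfkp: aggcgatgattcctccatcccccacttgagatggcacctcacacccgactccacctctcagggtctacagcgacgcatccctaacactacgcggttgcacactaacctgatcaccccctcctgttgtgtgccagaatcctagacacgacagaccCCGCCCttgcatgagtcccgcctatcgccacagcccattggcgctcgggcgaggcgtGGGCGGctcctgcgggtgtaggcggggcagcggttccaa
Aldoc: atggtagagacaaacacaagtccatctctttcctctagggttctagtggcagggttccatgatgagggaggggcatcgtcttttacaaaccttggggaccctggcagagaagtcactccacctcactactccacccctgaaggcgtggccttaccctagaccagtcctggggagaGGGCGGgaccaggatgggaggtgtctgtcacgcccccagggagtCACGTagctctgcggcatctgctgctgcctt
Pfkp held 2 GC boxes and Aldoc held 1 GC box and 1 ACGTG. Of 33469 promoters of the same length, 16.6% held ACGTG and 30.5% CCGCCC. Of the 26 measured member genes with an entry, 8 held ACGTG and 13 CCGCCC. The same stretch of Hk2 held neither. These matches are of letters in this window, and binding was not measured.

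Among the aldolases, Aldoc had a signal of 2032, 646 and 1009 in the controls, 1589, 835 and 1176 with Th1, 1257, 579 and 1413 with M/M, and 1559, 697 and 904 with Th2 cytokines. With M/M cytokines it was below control in experiments 1 and 2 and above it in experiment 3. The log2 difference was -0.12 (SE 0.22, n = 3, limma adjusted p = 0.806), and 0.08 and -0.14 with Th1 and Th2 cytokines (0.01 and -0.14 without experiment 3). Without experiment 3 it was -0.42 (SE 0.19, n = 2, limma adjusted p = 0.454) with M/M cytokines. With centring as well it was -0.74 (SE 0.13, n = 2, limma adjusted p = 0.0419), where 0.412 percent of all probe sets passed downward. This and the call of Hk2 without the array labelled Th1 of experiment 3 were the only calls of a member under limma in the settings tried. This pair of choices was made after seeing the data, and the call did not hold under 2 other scalings of experiments 1 and 2. Centring on the brightest 25 percent of probe sets gave -0.58 (adjusted p = 0.0595) and quantile normalization gave -0.58 (adjusted p = 0.0823). A second probe set of Aldoc gave -0.69 (SE 0.20, adjusted p = 0.15) with centring and without experiment 3.

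Among the astrocyte markers, Glul, which makes glutamine, had a log2 difference with M/M cytokines of 0.09, and -0.15 without experiment 3, whereas the glutamate transporter Slc1a3 had 0.33 and 0.25. With all arrays and without centring, 6 of the 7 measured markers were above control with M/M cytokines, all but Aldoc. Their median was 0.34, Aldoc included. The summed signal of the 7 measured astrocyte markers, Aldoc included, was from 4530 to 8680 in controls and from 5570 to 7490 with M/M cytokines. The part of astrocyte number in the Aldoc value was not tested. Aldoa, the more widespread aldolase, had 1251, 1198 and 249.6 in the controls and 897, 1390 and 684 with Th1 cytokines. Its log2 differences were 0.40, 0.31 and 0.25 (SE 0.29 each), and each rested on experiment 3, in which all 3 treated arrays were above a low control. Without it they were -0.13, -0.14 and -0.05.

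The brightest members were spread over all of the steps, with Eno1, Pkm, Pgam1 and Pgk1 of lower glycolysis among them. Probe sets differ in how well they bind, so brightness gives no order of transcript amounts. It does bear on precision. Of the 28 genes, 13 had a probe set at or above the 90th percentile of signal. Their log2 differences were from 0.01 to 0.71 with Th1, from -0.12 to 0.73 with M/M and from -0.14 to 0.33 with Th2 cytokines, with SEs from 0.17 to 0.29. Without experiment 3 they were from -0.13 to 0.57, from -0.42 to 0.35 and from -0.21 to 0.30. The 95% confidence interval of the difference lay within 1 log2 unit of 0 for 11, 12 and 13 of the 13 in the Th1, M/M and Th2 comparisons. A 2-fold difference between the groups as labelled was thus outside these intervals for most of the bright enzymes. The intervals rest on all arrays without centring, experiment 3 included. Because the arrays of experiment 3 went against their labels, the intervals do not bound the effect of a named mixture.

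Eno1, the common enolase, had 3396, 2184 and 2183 in the controls, 3187, 2658 and 2614 with Th1, 3104, 2653 and 3499 with M/M, and 2993, 2305 and 2475 with Th2 cytokines. Its log2 differences were 0.15, 0.28 and 0.03 (SE 0.17 each), with a 95% interval for M/M of -0.08 to 0.64. Without experiment 3 they were 0.10, 0.08 and -0.05. A second probe set of Eno1, X02610_at, gave 0.01, 0.05 and 0.02. Its Th1 and M/M arrays were below control in experiments 1 and 2 and above it in experiment 3. Pgam1, the phosphoglycerate mutase of brain, had 1890, 2116 and 1285 in the controls and 1774, 1942 and 2101 with M/M cytokines. On this probe set, S63233_at, the differences were 0.09 with Th1 and 0.16 with M/M cytokines (SE 0.18 each). Both turned without experiment 3, to -0.05 and -0.11. The other probe sets of Pgam1 did not turn. S63233_g_at gave 0.26 and 0.35, and rc_AI169417_s_at gave 0.30 and 0.49. Both were above control with Th1 and with M/M cytokines in experiments 1 and 2 too. Pkm, which makes pyruvate, had 1874, 1392 and 1915 in the controls and 1835, 2020 and 3169 with M/M cytokines. The M/M difference was 0.41 (SE 0.17, n = 3, limma adjusted p = 0.278), 0.25 without experiment 3 and -0.02 with centring. Pgk1, the phosphoglycerate kinase that yields ATP, gave 0.22, 0.43 and 0.15 (SE 0.19 each), and 0.29, 0.20 and 0.11 without experiment 3. Eno3, Pgam2 and Pklr, the forms typical of muscle or liver, had dim probe sets with signals of no more than 16.4 on any array, with log2 differences as far from 0 as -1.18 (SE 0.80) for Eno3 with Th1 cytokines.

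**Figure D3:**
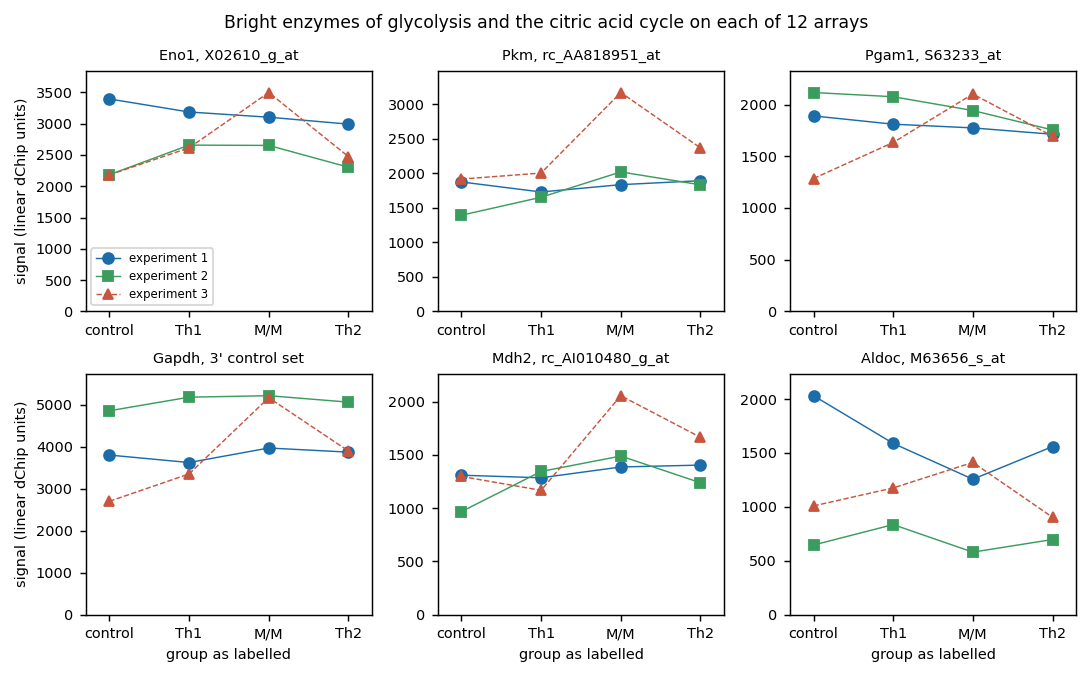
Signal on each of 12 arrays (y axis, linear dChip units from 0) for 5 bright enzymes of glycolysis and the citric acid cycle and for the 3′ control probe set of Gapdh, by the labelled group (x axis), with lines that join the arrays of 1 experiment. The lines of experiments 1 and 2 are nearly flat for Gapdh, while the array labelled M/M of experiment 3 stands above the control of its experiment in all 6 panels.

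Gapdh, which the study used as the reference for its PCR, was read on the 3′ control probe set of the array. It had 3802, 4858 and 2700 in the controls, 3624, 5182 and 3352 with Th1, 3970, 5217 and 5170 with M/M, and 3872, 5064 and 3899 with Th2 cytokines. Its log2 differences were 0.11, 0.37 and 0.21 (SE 0.17 each, limma adjusted p = 0.926, 0.322 and 0.798), when control probe sets were added to the fit, and -0.05, -0.06 and -0.01 after centring. The mean over experiments 1 and 2 was 0.01, 0.08 and 0.04. In experiments 1 and 2 its treated arrays were from 3624 to 3970 and from 5064 to 5217, close to their controls, and in experiment 3 all 3 were above it. The probe set M54926_at, annotated to Ldha and a related gene, gave 0.05, 0.32 and 0.12, and 0.19, 0.19 and 0.07 without experiment 3. The probe set rc_AI104399_at, annotated to Tpi1 and related genes, gave 0.43, 0.71 and 0.41, and 0.60, 0.50 and 0.45 without experiment 3. Neither can be given to 1 gene.

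Lactate dehydrogenase B (Ldhb), the subunit that favours the use of lactate, had 1039, 681 and 788 in the controls, 998, 849 and 907 with Th1, 903, 755 and 1234 with M/M, and 1110, 965 and 945 with Th2 cytokines. Its log2 differences were 0.15, 0.20 and 0.29 (SE 0.19 each), and 0.13, -0.03 and 0.30 without experiment 3. With Th2 cytokines it was above control in each of the 3 experiments, and a second probe set gave 0.43 (SE 0.20, n = 3, limma adjusted p = 0.717), and 0.43 without experiment 3 too. That second probe set gave 0.33 with Th1 and 0.50 with M/M cytokines, above control in each of the 3 experiments with both. Ldhc, the form of the testis, did not exceed a signal of 10.8.

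At the branch of pyruvate, Pdk1, the kinase that switches off pyruvate dehydrogenase, had 105, 89 and 56.5 in the controls, 83.4, 61.3 and 84.6 with Th1, 71.2, 35.1 and 74.6 with M/M, and 87, 63.9 and 50.1 with Th2 cytokines. All 6 treated arrays of experiments 1 and 2 were below control, and in experiment 3 those labelled Th1 and M/M were above. The M/M difference was -0.50 (SE 0.34, n = 3, limma adjusted p = 0.468), -0.95 (SE 0.27, adjusted p = 0.325) without experiment 3 and -1.27 (SE 0.31, adjusted p = 0.107) with centring as well. Pdk2 had 2 probe sets with differences of opposite sign for M/M cytokines, -0.15 and 0.26, and -0.16 and 0.20 without experiment 3. Pdha1 and Pdhb, subunits of the pyruvate dehydrogenase enzyme, gave 0.31 and 0.48 with M/M cytokines (SE 0.27 each), and 0.07 and 0.27 without experiment 3. Pc, pyruvate carboxylase, which in brain is a feature of astrocytes, gave 0.07, 0.44 and 0.33 (SE 0.27 each), and 0.12, 0.37 and 0.52 without experiment 3.

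The 7 measured genes of the citric acid cycle had median log2 differences of 0.07, 0.17 and 0.04, of 0.05, 0.08 and 0.17 without experiment 3 and of -0.09, -0.26 and -0.17 after centring. Mdh2, mitochondrial malate dehydrogenase, had 1310, 968 and 1298 in the controls, 1286, 1345 and 1168 with Th1, 1387, 1490 and 2057 with M/M, and 1405, 1239 and 1666 with Th2 cytokines. Above control in all 3 experiments with M/M cytokines, it gave 0.46 (SE 0.19, n = 3, limma adjusted p = 0.274), 0.35 without experiment 3 and 0.03 after centring. Cs, citrate synthase, which opens the cycle, gave 0.04, 0.40 and 0.46 (SE 0.27 each), and 0.01, 0.21 and 0.37 without experiment 3. Idh3g, a subunit of isocitrate dehydrogenase, and Suclg1, a subunit of succinyl-CoA synthetase, were named after their values were seen. Idh3g had 621 and 568 in the controls and 464 and 404 with M/M cytokines in experiments 1 and 2, but 187 and 271 in experiment 3. With centring and without experiment 3 the M/M differences were -0.77 (SE 0.19) for Idh3g and -0.58 (SE 0.15) for Suclg1, with an adjusted p of 0.107 for both. A second probe set of Suclg1 gave -0.06. In this setting the median over the 28 genes was -0.24, and 11 member probe sets (23.9%) had an unadjusted p under 0.05 downward, against 12.1 percent of all probe sets.

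**Figure D4:**
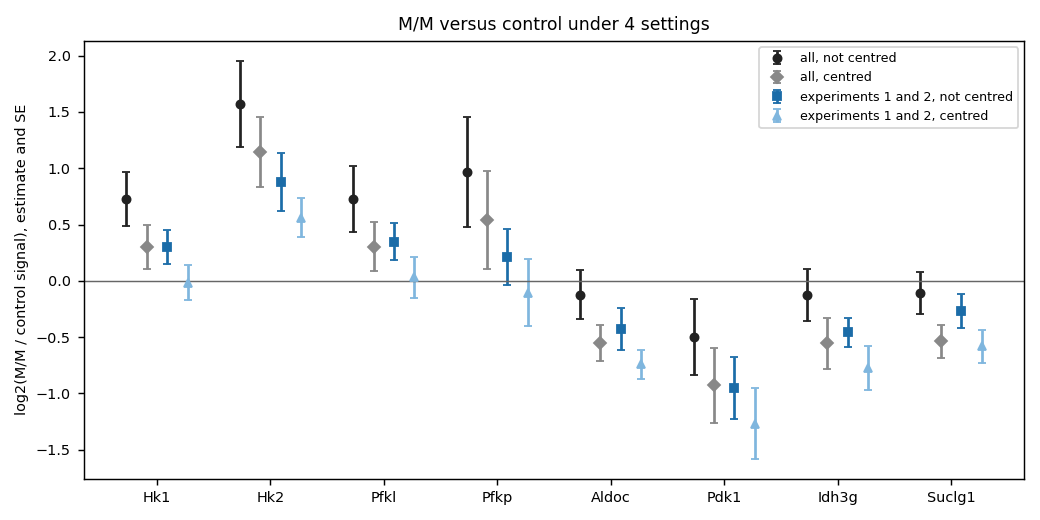
Log2 difference between M/M cytokines and control (y axis, limma estimate with bars of 1 SE) for 8 enzyme genes (x axis) under 4 settings, with all 3 experiments or with experiments 1 and 2, each without and with centring of the arrays on their median. The values of Hk1, Pfkl and Pfkp come close to 0 with centring and without experiment 3, those of Aldoc, Pdk1, Idh3g and Suclg1 move away from it, and Hk2 (D26393exon_s_at) stays above 0 in all 4.

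Between the mixtures no member passed either, and 0 percent of all probe sets did. For Th1 against M/M cytokines the lowest unadjusted p of a member was 0.0355, where Hk2 (M68971_at) had a log2 difference of -0.64 (SE 0.27, limma adjusted p = 0.903), and -0.25 without experiment 3. At an unadjusted p under 0.05 it was 1 of 2 member probe sets in the 3 comparisons of mixtures, the other being Hk2 (D26393exon_s_at) for M/M against Th2 cytokines. Of all probe sets, 0.24 percent were higher and 2.65 percent lower with Th1 than with M/M cytokines at that p. Against Th2 cytokines, 0.606 percent were higher and 1.25 percent lower with Th1, and 3.18 percent higher and 0.744 percent lower with M/M cytokines. The screening criteria called the dim probe set of Pklr lower with Th1 than with Th2 cytokines (log2 difference -1.45, SE 0.68, and -0.65 without experiment 3). They called the dim probe set of 2 for Idh1, a cytosolic isocitrate dehydrogenase, higher with M/M than with Th2 cytokines (1.5, SE 0.75, and 1.1 without experiment 3). Of all probe sets, these criteria called 0.629 percent upward and 1.12 percent downward for Th1 against Th2, 1.92 and 0.847 percent for M/M against Th2, and 0.4 and 1.51 percent for Th1 against M/M, where 0 members were called. Without experiment 3 no member passed in any of these comparisons. Of all probe sets, 0.458 percent then passed upward and 0.0114 percent downward for Th1 against Th2, 0.24 and 0.0229 percent for M/M against Th2, and 0 percent for Th1 against M/M.

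Around these enzymes, the genes that bring glucose in and that regulate the pathway were examined from lists. None of the probe sets of 9 genes of glucose and lactate transport passed, with a median log2 difference of 0.23 for M/M cytokines, 0.27 without experiment 3 and -0.20 after centring. The lowest adjusted p was that of Slc2a1, the glucose transporter GLUT1. Its signal was 767, 207 and 413 in the controls, 913, 528 and 995 with Th1, 1124, 489 and 1342 with M/M, and 1032, 336 and 1007 with Th2 cytokines. All 9 treated arrays were above the control of their experiment. The log2 differences for the Th1, M/M and Th2 mixtures were 0.96, 1.16 and 0.80 (SE 0.24 each, limma adjusted p = 0.599, 0.0672 and 0.642), and 0.80, 0.74 and 0.59 after centring. The M/M value passed without experiment 1 (1.47, adjusted p = 0.0374), without its control (1.45, 0.0279), and without the array labelled Th1 of experiment 2 (1.16, 0.0347) or of experiment 3 (1.16, 0.0286). Without experiment 3 it was 0.90 (adjusted p = 0.344).

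Of 14 listed regulators of glycolysis and of pyruvate dehydrogenase, 11 were measured, with a median of 0.73 for M/M cytokines and 10 above 0. Before centring, the median of all probe sets was also above 0 for this mixture. After centring the 11 values ran from -0.84 to 1.22, with a middle value of 0.30. None passed with all arrays. Without experiment 3 the median was 0.72. The lowest adjusted p was that of Pdp1, the phosphatase that switches pyruvate dehydrogenase on. It had 99.2, 40.6 and 39.6 in the controls, 252, 116 and 167 with M/M, and 212, 113 and 34.7 with Th1 cytokines. The M/M difference was 1.65 (SE 0.40, n = 3, limma adjusted p = 0.113), 1.22 after centring and 1.43 (adjusted p = 0.0862) without experiment 3. It passed without the array labelled Th1 of experiment 3 (1.65, adjusted p = 0.00611), as did the Th1 difference of Pdp1 (1.44, adjusted p = 0.0386), and without experiment 3 under centring (1.11, adjusted p = 0.0338). No probe set passed among the measured genes of the other lists, which were 5 of glycolysis and gluconeogenesis, 9 of pyruvate oxidation and the citric acid cycle, 2 of the pentose phosphate pathway, 8 of glycogen metabolism and 4 of the malate-aspartate shuttle. As a check on the cytokines, 10 genes known to respond to them were examined. Every probe set of these genes was counted here, not 1 per gene. Without experiment 3, 10 of their probe sets passed for the Th1, 9 for the M/M and 0 for the Th2 mixture, whereas over all experiments these numbers were 0, 6 and 0. Of all probe sets, 0.641, 0.389 and 0 percent passed upward without experiment 3, and 0, 0.263 and 0.0114 percent over all experiments.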

How the data were processed

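Affymetrix rat genome arrays measured RNA from 12 cultures of mixed glia. The deposited intensity values are signals of probe sets on a linear scale, which the authors calculated with dChip v1.2. A normalization between arrays is not given in the sources used here. Of 8799 probe sets, 59 control probe sets were left out. The platform annotation gave 1 gene symbol to 7006 of the remaining 8740, several to 308 and none to 1426.

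Signals below 0.1 were set to 0.1 and log2 transformed, without rescaling. Groups were compared with limma (version 3.58.1, R 4.3.3) with a variance trend and experiment as a fixed block (6 residual and 6.94 prior degrees of freedom). Benjamini-Hochberg adjustment covered all 8740 probe sets. Experiments were paired by the code in the sample titles. The log2 deviations of the 18 pairs of arrays of 1 experiment correlated at 0.439 to 0.708, and those of different experiments and groups at no more than 0.357. Experiments were separate cultures, and nothing says that the animals differed. The enzymes and lists were chosen with earlier results of these data known. Genes named singly were those with 1 of the 5 lowest unadjusted p-values against control for a mixture, the 4 brightest, Aldoc, the isoform families and Gapdh, and listed genes with the lowest p of their list. Pfkm, Pgk1, Pgam2, Pklr, Pdha1, Pdhb, Pc, Idh1, Idh3g and Suclg1 were named outside this rule, after their values were seen. Percentiles rank the mean log2 signal. Alternatives were other scalings, an offset of 16, leaving out the dimmest 25 percent, no variance trend, no block, a random block, and leaving out arrays or experiments. The precision is limited by 3 arrays per group. Promoter sequences are those of RefSeq (GRCr8).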

Additional observations from a re-analysis of the deposited data

How the results depend on the processing

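The count of member probe sets called by limma was 0 in all 6 comparisons under each alternative tried, with 2 exceptions, both for M/M against control. One was Hk2 (D26393exon_s_at) when the array labelled Th1 of experiment 3 was left out. The other was Aldoc. Median centring without replicate 3 (experiment 3), chosen after seeing the data, gave 1 call for M/M cytokines against control (Aldoc). The screening criteria of the methods, which are not a limma test, called 2 for M/M against control, 1 for Th1 against Th2 and 1 for M/M against Th2 cytokines. Fits without the replicate block, or with a random replicate block (correlation 0.6), called 0. Leaving out each experiment or array in turn called from 0 to 1 members for M/M against control, while all probe sets passing upward numbered from 0 (without the control of experiment 2, for example) to 180 (without the array labelled Th1 of experiment 3). In the other comparisons 0 members were called.

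The median log2 difference over the 28 genes depended on the scaling. For M/M cytokines it was 0.21 as given, -0.22 with median centring and -0.24 with centring and without experiment 3. For Th2 cytokines these values were 0.17, -0.04 and -0.14. For Th1 cytokines it was 0.07, and -0.23 with centring and without experiment 3. The cause was not tested. Leaving out 1 experiment or 1 array gave from -0.07 to 0.2 for Th1, from 0.03 to 0.43 for M/M and from 0.08 to 0.26 for Th2 cytokines. Among the values against control of the genes named by the rule and of Idh3g, Suclg1, Slc2a1 and Pdp1, 20 passed a threshold that they had missed (of Hk2, Pfkp, Aldoc, Slc2a1 or Pdp1), 2329 kept their direction and side of the threshold, and 318, none of which passed, changed sign. Dim probe sets such as those of Eno3, Pklr, Pgam2 and Ldhc are limited by their low signal. For Eno3 the 95% interval of the M/M difference was -2.64 to 0.80.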
